A study of Mus musculus with 8 samples.

Results

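The regions described here had a peak of open chromatin in 2 chosen libraries of control microglia and in no library from growth-restricted mice. At 297 of the 394 regions, neither of the 2 other control libraries had a peak. ATAC-seq mapped open chromatin in hippocampal microglia of mice aged 3 weeks, with 4 libraries from control animals (Ctrl replicates 1 to 4) and 4 from animals labelled FGR, which the series title ties to growth restriction inside the uterus. All 8 libraries came from mice heterozygous for a Tmem119-tdTomato reporter, in which the promoter of a microglial gene marks the cells. The labels name no sex, no number of animals behind a library and no statement that libraries came from separate animals. Each library has its own list of peaks. The lists of 6 libraries, Ctrl 3 and 4 and FGR 1 to 4, were merged wherever peaks shared at least 1 bp, which gave 52072 regions. A region was a member when it held a peak in both Ctrl lists and in no FGR list. There were 394 such control regions, 0.757% of all regions. The members were chosen by their peak calls in these 6 lists, so the contrast between the groups is given as a description and has no test. The opposite set, called in all 4 FGR lists and in neither Ctrl 3 nor Ctrl 4, held 534 regions, or 1.03%, and its rule asks for 4 peaks and not 2. The order of the counts turned with lists of equal length, to 522 control regions against 391. The number of control regions rose to 4440 without Ctrl 3 and to 3391 without Ctrl 4, where a peak in the remaining Ctrl list sufficed.

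In ATAC-seq a transposase cuts DNA that is not wrapped tightly in nucleosomes, and a peak marks a place where cuts pile up. Open sites at the starts of genes are mostly promoters and are often shared between cell types, while sites inside and between genes include enhancers, which carry much of the identity of microglia, the resident macrophages of the brain. A peak is called only when the pileup passes a threshold in that library. A region without a call may therefore still hold cuts below the threshold, and in bulk libraries fewer cells with an open site and less opening per cell cannot be told apart.

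The 8 libraries stood apart in ways that touch these regions. In regions shared by FGR 1 and 3, 9.14% of summits fell on the identical base, and for FGR 2 and 4 this was 7.57%, against 1.76% to 2.14% in the 13 other pairs of the 6 libraries. Ctrl 1 and 2, which the rule did not use, had wider peaks. The median peak spanned 566 bp in Ctrl 1 and 522 bp in Ctrl 2, and 353 to 386 bp in the other 6 lists. The lists of Ctrl 1 and 2 were also shorter, with 16111 and 10862 peaks against 22705 and 24195 in Ctrl 3 and 4 and 23327 to 29501 in FGR. Between Ctrl 1 or 2 and the other 6 libraries, 0.371% to 1.16% of summits lay exactly 200 bp apart, against 0.00503% to 0.0559% among those 6. The highest share was that of Ctrl 1 with Ctrl 3, and the next that of Ctrl 2 with Ctrl 4 (0.940%). Regions called in Ctrl 3 and in no other of the 6 lists held a Ctrl 1 peak in 7.12% of 2948 cases and a Ctrl 2 peak in 0.712%. Regions called only in Ctrl 4 held them in 1.97% and 2.02% of 4008 cases, although the Ctrl 2 list is the shorter. The labels do not say whether replicates 1 and 3, or 2 and 4, share animals or DNA. Counted by those pairs, the rule compares 2 Ctrl libraries with 2 pairs of FGR libraries, and Ctrl 1 and 2 are not known to be independent of Ctrl 3 and 4. Peaks within 1 kb of a gene end stood at 15 to 18 of 23 homeostatic microglia genes and at 0 to 2 of 19 neuron markers in each of the 6 lists. They stood at 1 to 3 of 13 astrocyte, 14 oligodendrocyte lineage and 12 lymphocyte markers, and at 0 to 3 of 7 erythroid markers. The counts were 1 to 2 of 12 endothelial and mural and of 8 border macrophage markers, and 0 to 1 of 14 monocyte and neutrophil markers.

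Only sequences of promoter windows were at hand, so the sequences shown are windows that overlap, in part or in full, control regions that reach a gene start. These 6 were chosen as examples among the named members, and they are not typical of the 394. Cmss1, Smpd4 and Slc25a53 had a peak in all 4 Ctrl lists, as 14 regions did. Fastkd2 shares its region with the divergent gene Mdh1b, and Bcl6 and Sh3rf3 are among the 7 genes with more than 1 control region. Each line gives the 250 bases before a RefSeq start of assembly GRCm38.p6 (the coordinates of mm10), read 5′ to 3′ on the gene's strand. The stretches of Fastkd2 and Sh3rf3 lie within their control regions. Those of Cmss1, Smpd4, Slc25a53 and Bcl6 lie partly outside them. Capitals mark the E-box CACGTG and the GC box GGGCGG, or its reverse complement CCGCCC.
Cmss1 (chr16:57606868-57607117, minus strand): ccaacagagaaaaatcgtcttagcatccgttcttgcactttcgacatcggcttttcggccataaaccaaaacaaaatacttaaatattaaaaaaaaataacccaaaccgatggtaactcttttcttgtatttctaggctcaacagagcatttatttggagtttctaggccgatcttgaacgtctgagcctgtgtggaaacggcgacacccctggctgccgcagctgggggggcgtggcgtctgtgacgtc
Smpd4 (chr16:17619104-17619353, plus strand): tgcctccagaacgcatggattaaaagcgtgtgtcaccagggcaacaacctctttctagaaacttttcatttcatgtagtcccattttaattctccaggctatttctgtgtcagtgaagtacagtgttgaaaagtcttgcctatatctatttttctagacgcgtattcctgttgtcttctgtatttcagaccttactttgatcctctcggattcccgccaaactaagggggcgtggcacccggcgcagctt
Slc25a53 (chrX:137038303-137038552, minus strand): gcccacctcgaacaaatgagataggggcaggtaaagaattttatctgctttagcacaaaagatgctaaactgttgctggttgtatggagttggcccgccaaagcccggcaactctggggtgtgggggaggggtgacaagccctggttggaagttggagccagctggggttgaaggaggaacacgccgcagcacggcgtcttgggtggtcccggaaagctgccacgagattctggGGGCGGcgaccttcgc
Fastkd2 (chr1:63730375-63730624, plus strand): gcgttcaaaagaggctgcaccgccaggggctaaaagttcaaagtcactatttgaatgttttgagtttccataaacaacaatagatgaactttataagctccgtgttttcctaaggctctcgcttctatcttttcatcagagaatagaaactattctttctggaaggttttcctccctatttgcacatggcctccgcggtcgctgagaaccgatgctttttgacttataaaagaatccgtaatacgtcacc
Bcl6 (chr16:23988853-23989102, minus strand): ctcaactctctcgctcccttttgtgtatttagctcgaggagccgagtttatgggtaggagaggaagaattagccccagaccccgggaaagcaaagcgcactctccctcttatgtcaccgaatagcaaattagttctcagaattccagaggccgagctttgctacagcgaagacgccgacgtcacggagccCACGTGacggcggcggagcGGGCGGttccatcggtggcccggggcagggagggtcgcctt
Sh3rf3 (chr10:58813109-58813358, plus strand): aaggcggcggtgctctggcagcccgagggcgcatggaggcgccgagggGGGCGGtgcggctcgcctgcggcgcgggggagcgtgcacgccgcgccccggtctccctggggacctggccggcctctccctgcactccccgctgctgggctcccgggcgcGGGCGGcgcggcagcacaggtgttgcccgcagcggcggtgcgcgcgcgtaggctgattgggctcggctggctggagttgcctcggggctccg
The stretch of Bcl6 holds an E-box and a GC box, that of Sh3rf3 holds 2 GC boxes and that of Slc25a53 holds 1. The stretches of Cmss1, Smpd4 and Fastkd2 hold none of the 8 motifs searched.

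Dusp7, which encodes a dual-specificity phosphatase that switches off MAP kinases, held 3 control regions, which ranked highest of all 394 in the Ctrl 4 list. The gene spans chr9:106368560-106375724 on the plus strand. The first region (chr9:106368784-106369359) begins just past the annotated start, and its summit pileup, the number of extended reads at the highest point, was 53, 109, 53 and 174 in Ctrl 1 to 4. Ctrl 2 and 4 were thus high and Ctrl 1 and 3 low, in the same order as the pairs by summit. By −log10 q the peak stood at percentile 99.96 of the Ctrl 4 list and 99.92 in Ctrl 2, but at 48.7 in Ctrl 3 and 41.4 in Ctrl 1. The second region (chr9:106370685-106371147) lies inside the gene and had pileups of 48, 80, 49 and 158 in Ctrl 1 to 4. The last one (chr9:106373632-106373980) had pileups of 55 in Ctrl 2, 54 in Ctrl 3 and 140 in Ctrl 4 and no peak in Ctrl 1. The local background at the first region was 18.5 in Ctrl 3 and 33.7 in Ctrl 4, against medians of 5.23 and 7.56 over the 394 regions.

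The FGR lists were not empty at Dusp7. All 4 had a peak about 1 kb before the start, with folds over background of 4.01, 4.72, 4.09 and 4.65 in FGR 1 to 4, which Ctrl 1, 3 and 4 also had at 2.94, 3.74 and 2.23. All 4 FGR lists also had a peak inside the gene, between the second control region and the last, with folds of 3.82, 4.19, 3.66 and 4.07, which among the Ctrl lists only Ctrl 3 had, at 2.65. The nearest FGR peaks lay 755, 529 and 1404 bp from the 3 control regions. The map of peaks along Dusp7 shows these positions, and the Ctrl 3 list had a peak at all of them.

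**Figure D1:**
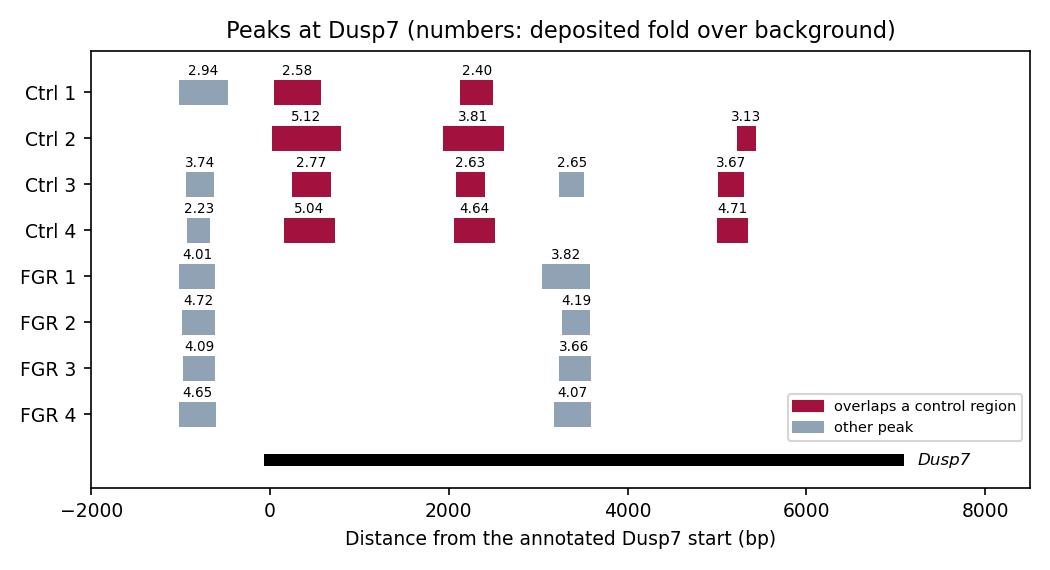
Peaks at Dusp7 in the 8 libraries, as bars along the distance from the annotated start in bp, with the deposited fold over background above each bar and the gene as a black bar. The 3 control regions (red) have peaks in 3 or 4 Ctrl libraries and none in FGR, while the peaks before the start and inside the gene (grey) are called in all 4 FGR libraries. Ctrl 1, 3 and 4 also have the grey peak before the start, and Ctrl 3 the one inside the gene.

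Most control regions were weak peaks, as were other regions called in few lists. The median fold over background was 3.55 in Ctrl 3 (range 2.10 to 5.97) and 3.11 in Ctrl 4 (2.09 to 5.34). Fold was higher in Ctrl 3 than in Ctrl 4 at 317 of 394 regions, and the median over all peaks was also higher in Ctrl 3 (4.09 against 3.51). Ranked by −log10 q within their own list, the regions had median percentiles of 23.6 in Ctrl 3 and 28.0 in Ctrl 4. Other regions called in exactly 2 of the 6 lists had 21.9 and 23.5. They lay above the median of the list at 44 regions in Ctrl 3, at 57 in Ctrl 4 and at 18 in both. The median pileup was 22 in Ctrl 3 and 26.5 in Ctrl 4. The smallest pileups called at all were 13 and 16 in these lists and 12 to 14 in the FGR lists. The plot of both percentiles shows the members crowded in the lower left, with the 3 Dusp7 regions alone at the top.

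**Figure D2:**
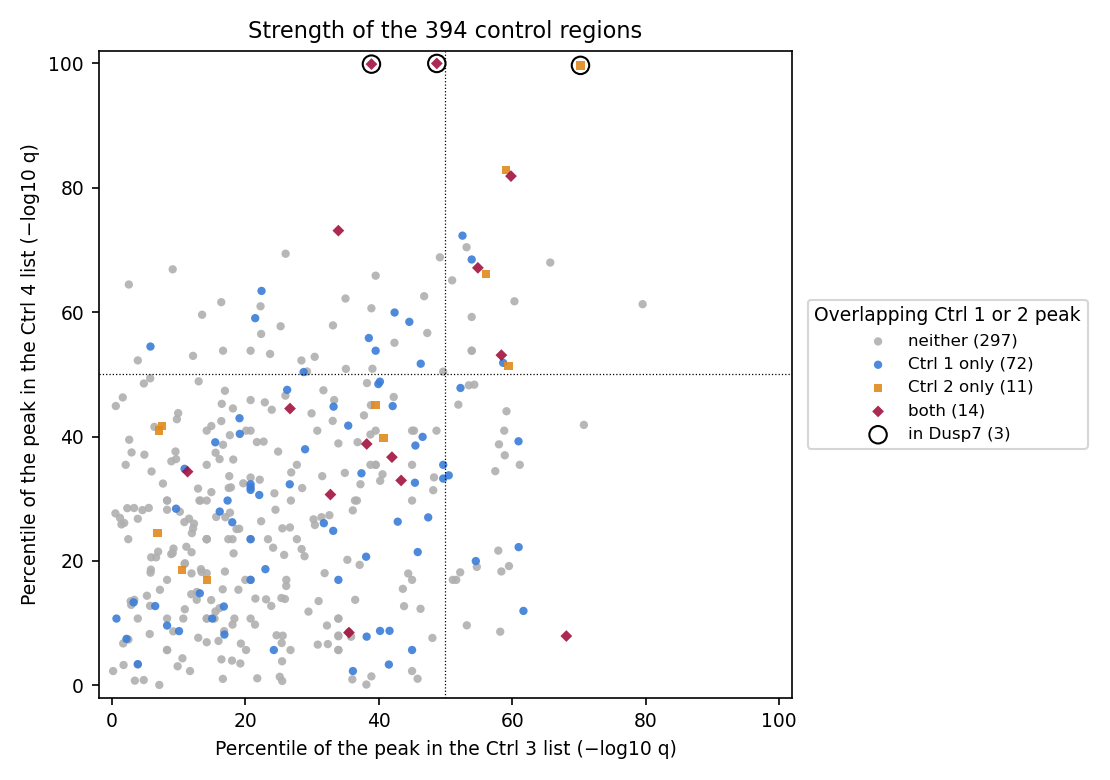
Percentile of each of the 394 control regions within the Ctrl 3 list (x) and the Ctrl 4 list (y), ranked by −log10 q, with colours for an overlapping peak in Ctrl 1 or Ctrl 2 and rings for the 3 regions in Dusp7. Dotted lines mark the middle of each list, and 18 regions lie above both.

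Regions at the edge of the rule and regions just outside it were picked by different measures. Members were picked by the lower of their Ctrl 3 and Ctrl 4 percentiles, and regions outside by the weakest FGR peak. The weakest members were a region near Zfp24 on chromosome 18, with folds of 2.58 in Ctrl 3 and 2.52 in Ctrl 4, a region near 4921536K21Rik (4.05 and 2.44) and a region at the start of Mtcl1 (3.23 and 2.31). Just outside stood a region at the start of B3galnt1, a galactosaminyltransferase gene, with folds of 3.53 in Ctrl 3 and 2.46 in Ctrl 4, which FGR 2 called at a fold of 2.70. A region inside Dnajc8 had folds of 4.08 and 2.95 in Ctrl 3 and 4 and was called in FGR 1 at 2.71. A region near Lair1, an inhibitory receptor gene, had 3.45 and 2.59 and was called in FGR 1 at 2.55. The 3 FGR peaks lay at percentiles of 0.279 to 0.564 of their lists, which follows from how these regions were picked. By the lower of the Ctrl 3 and Ctrl 4 percentiles, the 3 members stood at 0.167, 0.136 and 0.0744. The 3 regions outside stood at 1.68, 15.2 and 11.8. Regions that more FGR lists shared ranked higher in Ctrl. Over regions called in both Ctrl lists, the median percentile in Ctrl 3 was 23.6 with no FGR list, 27.7 with 1, 32.7 with 2, 40.1 with 3 and 71.3 with all 4. With only peaks of −log10 q of at least 5 in every list, the rule gave 278 regions, and these overlapped 99 of the 394.

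Ctrl 1 and 2 gave the readout that the rule did not use. A Ctrl 1 or Ctrl 2 peak overlapped 97 of the 394 control regions, or 24.6% (exact 95% interval 20.4 to 29.2, counting error only), against 31.5% of all regions. Ctrl 1 overlapped 86 and Ctrl 2 overlapped 25. Both did so at 14, or 3.55%, against 18.2% of all regions, and neither at 297. All regions include those shared by every list, so regions called as rarely are the closer comparison. Other regions called in exactly 2 of the 6 lists held a Ctrl 1 or 2 peak in 7.96% of 5964 cases, and in 12.3% of 2928 when regions called only in FGR 1 and 3 or only in FGR 2 and 4 were left out. The opposite FGR set held one in 15.0% (12.1 to 18.3). Regions called only in FGR 3 and 4 held one in 6.84% of 395. These 4 sets hold no region called in both Ctrl 3 and Ctrl 4. The share was higher at the control regions than in those 4 sets, though regions are not replicates. Where a peak in 1 Ctrl list sufficed, it was 6.01% without Ctrl 3 and 9.88% without Ctrl 4. The link of Ctrl 1 with Ctrl 3 and of Ctrl 2 with Ctrl 4 moves in the same direction, and its part in the result was not tested.

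**Figure D3:**
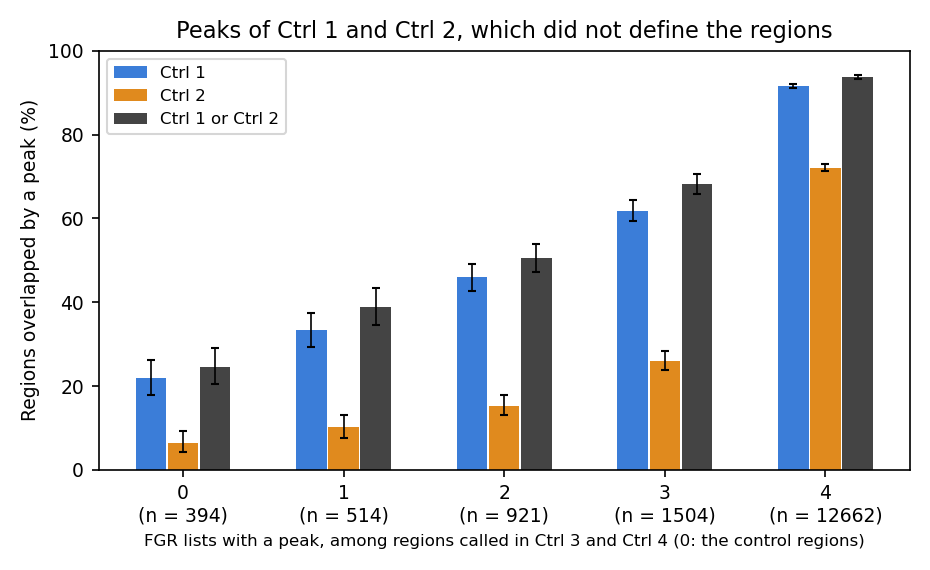
Percent of regions called in both Ctrl 3 and Ctrl 4 that a peak of Ctrl 1, Ctrl 2 or either overlaps, by the number of FGR lists that also call the region, with exact 95% intervals for counting error. The control regions (0 FGR lists) stand lowest at 24.6% for either library, and regions in all 4 FGR lists highest at 93.7%. The median region width rises in the same order, from 358 to 785 bp.

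Within the regions called in both Ctrl 3 and 4, the control regions had the lowest share. It was 24.6% of the 394 with no FGR list, 38.9% of 514 with 1, 50.6% of 921 with 2, 68.2% of 1504 with 3 and 93.7% of 12662 with all 4. The median width of the merged regions rose in the same order, from 358 to 421.5, 479, 558 and 785 bp. The part of width in these shares was not tested. The share also followed strength among the members. Ordered by the lower of the 2 percentiles and divided into 4 bins, 17 of 101 held a Ctrl 1 or 2 peak in the weakest bin, then 15 of 97, 27 of 97 and, in the strongest bin, 38 of 99. It was 36.9% at gene ends, 20.8% inside genes and 19.2% between genes, where all regions had 63.7%, 21.1% and 18.9%. The members were thus near the share of all regions inside and between genes and below it at gene ends. Other regions called in exactly 2 of the 6 lists, the closer comparison, had 13.47%, 7.634% and 5.925%. The members stood above these at each position. Where Ctrl 1 had a peak at a member, its pileup was within 2 reads of the Ctrl 3 pileup at 46 of 86 regions and of the Ctrl 4 pileup at 24. Where Ctrl 2 had one, this was so at 3 of 25 for Ctrl 3 and at 0 for Ctrl 4, the library linked to it by summits. Depth differs too, with background coverages of 4.53, 3.01, 4.04 and 6.05 in Ctrl 1 to 4. No member had summits exactly 200 bp apart in Ctrl 1 and 3 or in Ctrl 2 and 4. Over all shared regions these shares were 1.16% and 0.940%, so 86 and 25 regions are too few for this count to tell. The summits of the Ctrl 1 peaks lay a median of 125 bp from those of Ctrl 3, and the summits of Ctrl 3 and 4 lay a median of 62.5 bp from each other. That last distance was 37 bp at the 12662 regions called in all 6 lists. Counting a Ctrl 1 or 2 peak up to 200 bp away raised the 97 regions to 107.

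The 14 regions with a peak in all 4 Ctrl lists are those with the most Ctrl calls. Besides the first 2 of Dusp7, the region shared by ends of the neighbours Recql4 and Lrrc14 (chr15:76710283-76710837) had folds of 3.28, 3.85, 4.27 and 4.52 in Ctrl 1 to 4. Recql4 encodes a helicase of DNA replication and repair, and the nearest FGR peak was 4338 bp away. At Cmss1 (chr16:57606523-57606992) the folds were 3.26, 4.24, 4.89 and 4.30, with the nearest FGR peak 20479 bp away. At Slc25a53, a gene of the mitochondrial carrier family (chrX:137038027-137038486), they were 5.06, 4.98, 4.17 and 5.11. At one end of Map2k3, the kinase that activates p38 (chr11:60953790-60954152), they were 3.85, 3.29, 4.44 and 3.46. At Smpd4, a sphingomyelinase gene (chr16:17619235-17619736), they were 3.42, 3.56, 4.26 and 3.34, and an FGR peak lay 725 bp away. At Ltbp1, which encodes a protein that stores latent TGF-beta (chr17:75005769-75006548), they were 3.31, 3.74, 4.0 and 3.33, and the nearest FGR peak was 117261 bp away. The other 6 regions lay at ends of Reep4, which shapes the endoplasmic reticulum in mitosis, of the oligosaccharyltransferase gene Rpn1, of Fhl3 and of Gm38664 (also at a start of Wdr26), and inside Entpd1 and Arhgap9. Their folds ran from 2.4 to 4.26 over the 4 Ctrl libraries. The nearest FGR peak lay only 28 bp away at Rpn1, 283 bp at Gm38664 and 364 bp at Fhl3. It lay 6577 bp away at Reep4, 7974 bp at Entpd1 and 10813 bp at Arhgap9.

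About 1 in 4 control regions lay at a gene end, close to the share of all open regions. A region was placed at a gene end when it came within 1 kb of the first or last annotated base of a protein-coding gene. Of the 394 regions, 103 (26.1%, interval 21.9 to 30.8) were at a gene end, against 26.0% of all 52072 regions. Another 144 (36.6%) lay inside a gene and away from its ends, 146 (37.1%) lay between genes, and 1 lay on an unplaced scaffold. In the opposite FGR set, 11.8% (9.19 to 14.8) were at gene ends and 53.7% inside genes. In other regions called in exactly 2 of the 6 lists, 16.7% were at gene ends and 46.3% inside genes, and without those called only in FGR 1 and 3 or only in FGR 2 and 4, 19.6% (18.2 to 21.1) were at gene ends. The control regions' share was above these, though regions are not replicates. Against the other regions called in exactly 2 lists, this rested on the choice of control regions. The shares that follow all lie above the 11.8% of the opposite set, and the comparison sets were not chosen again alongside. The control regions' share was 20.8% (16.6 to 25.6) without regions that have an FGR peak within 500 bp. Where a peak in 1 Ctrl list sufficed, it was 16.7% without Ctrl 3 and 15.8% without Ctrl 4. All the Ctrl lists also held more of their peaks at gene ends than the FGR lists did, 43.0% to 62.8% against 35.9% to 41.4%, and the part of that in the difference was not tested. Of the 394, 81 lay within 1 kb of a transcription start, from a start table that lacks some genes. The bars of position by set show these shares.

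**Figure D4:**
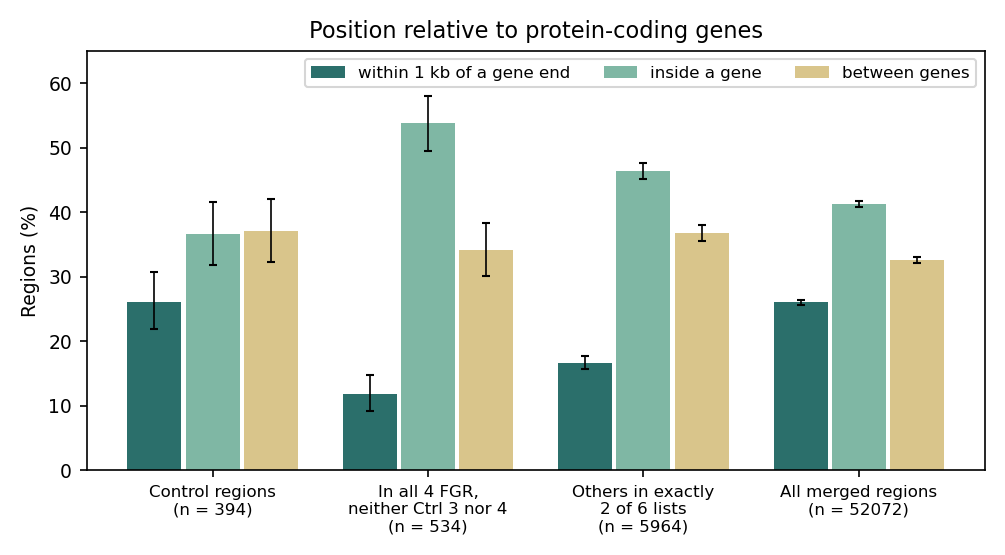
Percent of regions within 1 kb of a gene end, inside a gene or between genes, for the 394 control regions, the 534 regions of the opposite FGR set, 5964 others called in exactly 2 of 6 lists and all 52072 regions, with exact 95% intervals for counting error. Gene ends hold 26.1% of the control regions and 11.8% of the opposite set.

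The strongest regions at gene ends, ordered by the lower of their 2 percentiles, included several already described at Recql4, Cmss1 and Map2k3. Slc25a33, a mitochondrial nucleotide carrier gene (chr4:149744254-149744499), came first with folds of 5.97 in Ctrl 3 and 4.09 in Ctrl 4 and had no peak of Ctrl 1 or 2 at this place. Spc24, a kinetochore gene (chr9:21760003-21760508), had 4.73 and 5.34 and a Ctrl 2 peak at 3.97. The region between the divergent starts of Fastkd2, a mitochondrial RNA-binding protein gene, and Mdh1b (chr1:63730276-63730840) had 4.97 and 4.82 and a Ctrl 1 peak at 4.16. The nearest FGR peak to it was 214931 bp away. Dph7, an enzyme gene of diphthamide synthesis (chr2:24962193-24962592), had 4.04 and 4.53 and no Ctrl 1 or 2 peak. Dand5, a secreted antagonist of Nodal (chr8:84815425-84815887), had 3.84 and 3.16 and a Ctrl 2 peak at 3.30.

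A control region at a gene end did not always mean a gene end without an FGR peak. The 103 regions touched ends of 114 genes, and 32 of these genes had another gene-end peak in all 4 FGR lists. At 54 genes no FGR list had any gene-end peak. Of those 54, a gene-end peak was called in 2 Ctrl lists at 35 genes, in 3 at 14 genes and in all 4 at 5 genes, which were Fhl3, Ltbp1, Recql4, Reep4 and Slc25a53. These 5 were chosen after their values were seen. At Fhl3 an FGR 4 peak lay 364 bp from the control region, outside the 1 kb window around the gene end.

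Inside genes the strongest regions after Dusp7 lay in genes of varied function. The region in Tsnaxip1 (chr8:105835336-105835703) had folds of 5.13 in Ctrl 3 and 4.22 in Ctrl 4. The region in Kcnj6, a potassium channel gene (chr16:94812619-94812911), had 4.97 and 4.11, and neither had a Ctrl 1 or 2 peak. The region in Mto1, a mitochondrial tRNA modification gene (chr9:78448107-78448585), had 4.05 and 4.05 and a Ctrl 1 peak at 2.58. The regions in Rasa2, which inactivates Ras (4.77 and 3.90), and in Ap2m1, a clathrin adaptor gene (3.41 and 3.16), had no Ctrl 1 or 2 peak. Those in Iqcn (2.42 and 2.29) and in the integrin gene Itga6 (3.71 and 3.60) had a Ctrl 1 peak, at 1.91 and 2.93. The regions in Mto1 and Iqcn also lay within 1 kb of a transcription start, though away from the outermost bases of the gene. Between genes, the strongest lay 2751 bp from Zfp382 (5.58 and 4.79), 42618 bp from Sec14l1 (4.18 and 3.84), 11768 bp from the semaphorin receptor gene Nrp2 (4.97 and 4.31), 40215 bp from Gm815 (4.97 and 4.11) and 7199 bp from the MHC class I gene H2-D1 (4.09 and 4.03). Only the region near Sec14l1 also had a Ctrl 2 peak, and none of the 5 had a Ctrl 1 peak.

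A few genes held more than 1 control region. Besides Dusp7 with 3, these were Bcl6, Fat3, Fry, Map3k15, Prkce and Sh3rf3 with 2 each. Bcl6, which encodes a transcriptional repressor, had one at its start (chr16:23988677-23988956), with folds of 2.99 in Ctrl 3 and 2.24 in Ctrl 4, and one inside the gene with 2.32 and 2.84. Neither had a Ctrl 1 or 2 peak. Sh3rf3, a ubiquitin ligase gene, had both near its start, with folds of 3.97 and 2.97 at one and 3.44 and 3.40 at the other, and the nearest FGR peak was 136624 bp or more away. Prkce, which encodes protein kinase C epsilon, had 4.44 and 3.34 at a region with a Ctrl 1 peak (2.82) and 3.25 and 3.66 at one without.

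Most control regions had an FGR peak within 10 kb, as most regions of the opposite set had a Ctrl 3 or 4 peak. The median distance to the nearest was 6116 bp, from 7 to 309900 bp. An FGR peak lay within 500 bp at 62 regions, within 1 kb at 90 (22.8%) and within 10 kb at 261 (66.2%). The closest case of all was at the start of Fat3, a cadherin gene, where an FGR peak stood 7 bp from the control region.

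Control regions lay near listed genes as rarely as open regions in general. Of the 394, 18 lay in the locus (the gene with 20 kb on each side) of a gene of 27 lists, or 4.57%, and so did 2382 of all 52072 regions, also 4.57%. None lay in a locus of the 23 homeostatic microglia genes, although 140 of all 52072 regions did (0.269%). There were also none for microglia transcription factors (0.275% of all regions), disease-associated microglia (0.148%), interferon response (0.142%), inflammatory response (0.250%), hypoxia and glycolysis (0.236%), chromatin modifiers (0.263%) and ribosomal proteins (0.144%). At these background shares a list would hold about 1 of 394 regions or fewer, so a count of 0 for a single list was not distinguishable from its background. Of the 8 lists that mark other cell types, 7 held none. The eighth, the oligodendrocyte lineage, held 1 (0.254% against 0.0845% of all regions) at Cspg4, the NG2 proteoglycan gene, with folds of 2.51 in Ctrl 3 and 2.78 in Ctrl 4 and no Ctrl 1 or 2 peak.

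Some listed genes did hold a control region. TGF-beta signalling held 2 (0.508% of the 394 against 0.179% of all regions), at Ltbp1 and inside Nrros, which presents latent TGF-beta on microglia, with 4.17 and 2.98 and no Ctrl 1 or 2 peak. Purinergic genes held 1 (0.254% against 0.158%), inside Entpd1, the ectonucleotidase CD39 (chr19:40737066-40737476), with folds of 3.21, 3.40, 4.22 and 3.28 in Ctrl 1 to 4. Immediate early genes held 3 (0.761% against 0.269%), one of them inside Nr4a1, a nuclear receptor gene induced by stimulation, with 2.76 and 2.38 and an FGR peak 529 bp away. These are counts of 1 to 3 regions, which were not tested.

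The promoter windows that control regions reached were richer in CpG than the average window and poorer than those open in every list. From 250 bases before to 50 after a start, 59 windows of 55 genes overlapped a control region. Their median GC content was 58.7%, with 20 CpG, against 56.3% and 13 over all 21262 windows and 63.0% and 24 over the 7915 windows that overlapped a region called in all 6 lists. Windows that overlapped the opposite FGR set (42) had 56.0% and 13. The average over all windows includes 10299 that overlapped no merged region, with 49.0% and 4. Promoters open in few lists were compared only through the opposite FGR set. The GC box GGGCGG, read on both strands, was in 55.9% of the 59, in 46.2% of all windows and in 72.4% of those open in every list. The ETS motif CCGGAAG, bound by factors active at many promoters, was in 11.9%, 11.6% and 22.4% of these windows in turn. The PU.1 motif GAGGAAGT was in 2 of the 59 (3.39% against 3.13% of all), the AP-1 motif TGANTCA in 2 (3.39% against 6.99%), the CTCF core CCACNAGG in 2 (3.39% against 5.06%) and YY1 AAGATGGC in 2 (3.39% against 3.05%). The E-box CACGTG was in 5 (8.48% against 7.84%) and NRF1 GCGCATGC in 3 (5.08% against 3.51%). The ETS and PU.1 motifs share the letters GGAAG, and a match describes the letters in the window only.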

How the data were processed

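Peak lists of 8 ATAC-seq libraries were used, 1 list per library. Per the labels, libraries were made with the Vazyme Hyperactive ATAC-Seq kit. Per the submitters' processing notes the build was mm10 and the tools were MACS2 2.2.7.1, DiffBind 3.12.0, Bowtie2 2.4.5, Trim Galore 0.6.5 and SAMtools 1.3.1, with no role given. How reads were shifted, deduplicated or filtered was not given in the sources used here. The fold values are a deposited ratio of summit pileup to local background, each with 1 added, and the deposited −log10 p-values and −log10 q-values measure the excess. The deposited score was not used. All are the authors' own values per peak and served to describe, rank or filter peaks of 1 list.

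Library read totals were not used here. The whole-number pileup and the local background were recovered from fold and −log10 p under a Poisson tail, for 100% of peaks in every list (tolerance 0.001). The lowest background of a list, a measure of depth, was 4.53, 3.01, 4.04 and 6.05 extended reads in Ctrl 1 to 4 and 3.82, 3.52, 4.82 and 4.60 in FGR 1 to 4. Merging all 8 lists and not 6 gave 385 control regions. Genes were the 21883 protein-coding RefSeq genes of GRCm38.p6 on the autosomes, X and Y, without exons. Starts came from 21262 promoter windows of 17491 genes, so region sequence away from promoters was not analysed here. Of 461 listed symbols, 459 matched.

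Intervals are exact (Clopper-Pearson, 95%) and cover counting error only. Regions are not replicates and no group contrast was tested. The regions and gene lists were chosen with earlier results of these data known. Named regions are the first 8 at gene ends, 8 inside and 5 between genes by the lower percentile, those called in all 4 Ctrl lists, those within 1 kb of a listed gene, genes with more than 1 region and the edge cases. Some results that this rule would name are not reported here. The scripts were tested on simulated data. Scripts ran in Python 3.11.15 with pandas 2.3.3, numpy 2.4.6, matplotlib 3.10.9 and scipy 1.17.1.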

Additional observations from a re-analysis of the deposited data

Results flagged for a closer look

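At Slc25a53 the deposited fold of Ctrl 3, 4.17, lay far below those of Ctrl 1, 2 and 4 (5.06, 4.98 and 5.11), with a gap to the nearest value, relative to the group's range, above Dixon's 95% critical value for 4 samples. Chance flags about 1 in 20 groups, and 28 groups of 4 were examined.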

How the results depend on the processing

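Alternatives were mostly fixed with the design. Leaving out the Dusp7 regions, or the unplaced scaffold and chromosome Y, was added after seeing the data and left the 3 shares within their counting intervals, with 391 and 392 control regions. The number of control regions ranged from 485 to 4440 with 1 library left out. It rose to 4440 without Ctrl 3 and to 3391 without Ctrl 4, since 1 Ctrl list then sufficed, and to 485 to 563 without an FGR list. The opposite set ranged from 700 to 1274, the share with a Ctrl 1 or 2 peak from 6.01% to 28.8%, gene ends from 15.8% to 29.1% and inside genes from 36.1% to 45.4%. With FGR 3 and 4 only, 1 library of each FGR pair, there were 660 control regions and 1623 in the opposite set, 34.1% with a Ctrl 1 or 2 peak and 32.4% at gene ends. At −log10 q of at least 5, gene ends held 38.9% and inside genes 31.3%. With lists cut to the 22705 strongest peaks, there were 522 control regions and 391 in the opposite set, and 29.9% of the control regions held a Ctrl 1 or 2 peak. Gene ends held 20.8% without regions that have an FGR peak within 500 bp, 21.6% with a window of 500 bp and 20.6% with starts only. The causes were not tested. No paired analysis was possible because the results come from no test. Weak peaks near the threshold, and FGR signal below it, cannot be resolved from these lists.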

Other observations

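Genes of the MAP kinase cascades recurred among the control regions, a pattern chosen after its values were seen and given with no test. Of 43 genes named as Map2k, Map3k, Map4k or Mapk, 6 held a control region within their span or 1 kb of it, or 13.95%, against 255 of all 21883 protein-coding genes, or 1.17%. These genes are longer than most, with a median span of 57064 bp against 17170 bp. All 43 (100%) held some merged region by the same measure, against 68.46% of all protein-coding genes. Counted over regions, 7 of the 394 control regions (1.78%) lay at them, against 161 of all 52072 regions (0.309%) and 0.187% of the opposite FGR set. The kinases Map2k3 and Map2k6 activate p38, and Mapk14 encodes p38 alpha itself. Beside the region at Map2k3, that inside Map2k6 had folds of 4.77 in Ctrl 3, 3.45 in Ctrl 4 and 4.37 in Ctrl 1. The region inside Mapk14 was weak, with 2.77 in Ctrl 3 and 2.34 in Ctrl 4 and no Ctrl 1 or 2 peak. Map3k13 had 3.10 and 2.98 and Map4k3 had 3.38 and 3.40, both without a Ctrl 1 or 2 peak. Map3k15 held 2 regions, with 4.57 and 2.84 at the one that Ctrl 1 also called and 3.77 and 3.69 at the other.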
